A study of Mus musculus with 48 samples.

Results

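The comparison set 6 Ba/F3 clones that had lost 1 or both copies of Rpl22 against 6 Ba/F3 clones that had lost 1 copy of Rpl5 or of Rpl11. Its members were chosen by genotype alone: 3 Rpl22+/- clones (13, 16 and 60) and 3 Rpl22-/- clones (649, 30 and 776) on one side, 3 Rpl5+/- clones (80, 76 and 68) and 3 Rpl11+/- clones (406, 414 and 22) on the other. Each clone gave 1 RNA-seq and 1 ribosome footprint library, so the comparison took 24 of the 48 libraries of the series. Ba/F3 cells are interleukin 3-dependent pro-B cells of the mouse, and each mutant line is a CRISPR-Cas9 clone of them. All clones grew in 1 ng/ml interleukin 3 and 10% serum, and met 0.1 mg/ml cycloheximide, which stalls elongating ribosomes, for 1 min before harvest. The 3 WT clones entered no test but the alternative fit of all 8 genotypes, and their levels are given as a description on the same scale. The deposited labels do not name the exact edit of each allele.

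Rpl5 and Rpl11 are essential proteins of the large ribosomal subunit that join 5S ribosomal RNA in the 5S particle before it is docked on the maturing subunit. When ribosome assembly is disturbed, free 5S particles can bind Mdm2, the ubiquitin ligase that keeps p53 low. Rpl22 is also a large-subunit protein, but cells can make ribosomes without it, and its close paralog Rpl22l1 can take its place. The clones with loss of Rpl5 or Rpl11 are called the 5S clones here.

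Total counts were 13029073 to 35141862 in RNA and 15598994 to 72044439 in footprints over the 12 clones, with the lowest footprint total in Rpl22+/- clone 60. In a principal component analysis of RNA, the first component held 21.8% of the variance and placed the 6 Rpl22 clones between 7.88 and 12.9 and the 6 5S clones between -31.2 and 0.112. In footprints, the first component was set by Rpl22+/- clone 60 at -90.1 and the second by Rpl11+/- clone 22 at -60.8, so results are also given without these 2 clones. A class holds 2 genotypes of 3 clones each, and a difference between classes cannot be told apart from a difference between these particular clone lines. The labels do not say whether the clones of a genotype were edited or grown separately, so p-values measure the spread between these clones.

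Of 16 markers of the B lineage, 7 had no RNA count in any of the 12 clones, among them Ebf1 and Rag2. Pax5, the factor that commits cells to the B lineage, stayed between 0 and 0.0735 CPM (counts scaled to library size). Tcf3 (116 to 144 CPM), Ikzf1 (17.3 to 29.1 CPM) and Cd79b (5.13 to 8.84 CPM) were the 3 B lineage markers with enough counts to be tested, and none was called. Cd79a was not tested, but its highest value in the 5S clones was 9.96 CPM in RNA and 7.78 CPM in footprints. Its RNA median was 0.161 CPM in the 5S clones, and it stayed at 0.22 CPM or less in the Rpl22 clones. Markers of other blood lineages were present too. Gata2, of mast cells and early progenitors, lay between 348 and 520 CPM, Spi1 between 68.4 and 93.3 CPM and Gata1 between 40.7 and 65.3 CPM. All 7 T cell markers had medians under 1 CPM in both classes. The summed level of 13 myeloid markers was 156 to 383 CPM in the Rpl22 clones and 190 to 515 CPM in the 5S clones. All 9 tested had negative class differences, with a median of -0.69 and a lowest value of -1.93, and 0 were called. In footprints 9 of 10 were negative, with a median of -0.83, and 0 were called. Their part in the results was not tested.

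The edited genes checked the labels first. Rpl22 RNA (ENSMUSG00000028936, chr4:152324436-152334082 in GRCm38) was at 671, 721 and 683 CPM in the Rpl22+/- clones and at 515, 736 and 673 CPM in the Rpl22-/- clones. In the Rpl5+/- clones it was at 1169, 1163 and 1239 CPM, and in the Rpl11+/- clones at 1249, 1179 and 1226 CPM. Every Rpl22 clone lay below every 5S clone, while the homozygous and heterozygous clones overlapped. The class difference was -0.85 on the log2 scale (SE 0.07, adjusted p = 9.56e-05).

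Rpl22 footprints separated the heterozygous from the homozygous clones less cleanly than the labels say. The Rpl22+/- clones had 1630, 1491 and 1467 CPM. Clones 649 and 776 of Rpl22-/- had 282 and 322 CPM, whereas the library labelled Rpl22-/- 30 had 1557 CPM, inside the range of the heterozygous clones. The 5S clones had between 2059 and 2807 CPM. What sets clone 30 apart was not tested. It stays in the values below under its label, and the counts between classes and between genotype pairs are given without it as well.

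Rpl5 RNA (chr5:107900508-107909005) was at 1569, 1560 and 1612 CPM in the Rpl5+/- clones, below all other clones, and at 2759, 2878 and 2767 CPM in the Rpl11+/- clones, above all other clones. The 6 Rpl22 clones lay between these, at 2316 to 2648 CPM, near the WT clones at 2325 to 2380 CPM. Rpl11 RNA (chr4:136049354-136053393) mirrored this, with 1171, 1024 and 1078 CPM in the Rpl11+/- clones, 2011, 1899 and 2094 CPM in the Rpl5+/- clones and 1666 to 1878 CPM in the Rpl22 clones. Each 5S genotype thus had the lowest RNA for its own edited gene and the highest for the partner. The class differences, which average over both, were 0.19 for Rpl5 and 0.28 for Rpl11 (SE 0.04 each, adjusted p = 0.00514 and 0.00198), and both calls ended when each class was fitted with 1 mean. A level above WT in the 5S clones was not particular to the partner gene. In each of the 76 unedited ribosomal protein genes the 5S mean was above the WT mean (median log2 ratio 0.30, not tested).

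Rpl22l1, the paralog, had its highest RNA in the clones labelled Rpl22-/-, at 788 and 724 CPM in clones 649 and 776 and 823 CPM in clone 30. The Rpl22+/- clones had 641, 568 and 586 CPM, the Rpl5+/- clones 619, 547 and 636 CPM and the Rpl11+/- clones 504, 536 and 341 CPM. Clones 649 and 776 stood above all 5S clones, as did clone 30, while the Rpl22+/- and Rpl5+/- clones overlapped. The class difference in RNA was 0.38 (SE 0.10, adjusted p = 0.0314). Leaving out a single clone ended this call for 8 of the 12 clones, and without clone 30 the difference was 0.36 (adjusted p = 0.0678). In footprints the difference was 0.33 (SE 0.11, adjusted p = 0.237).

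**Figure D1:**
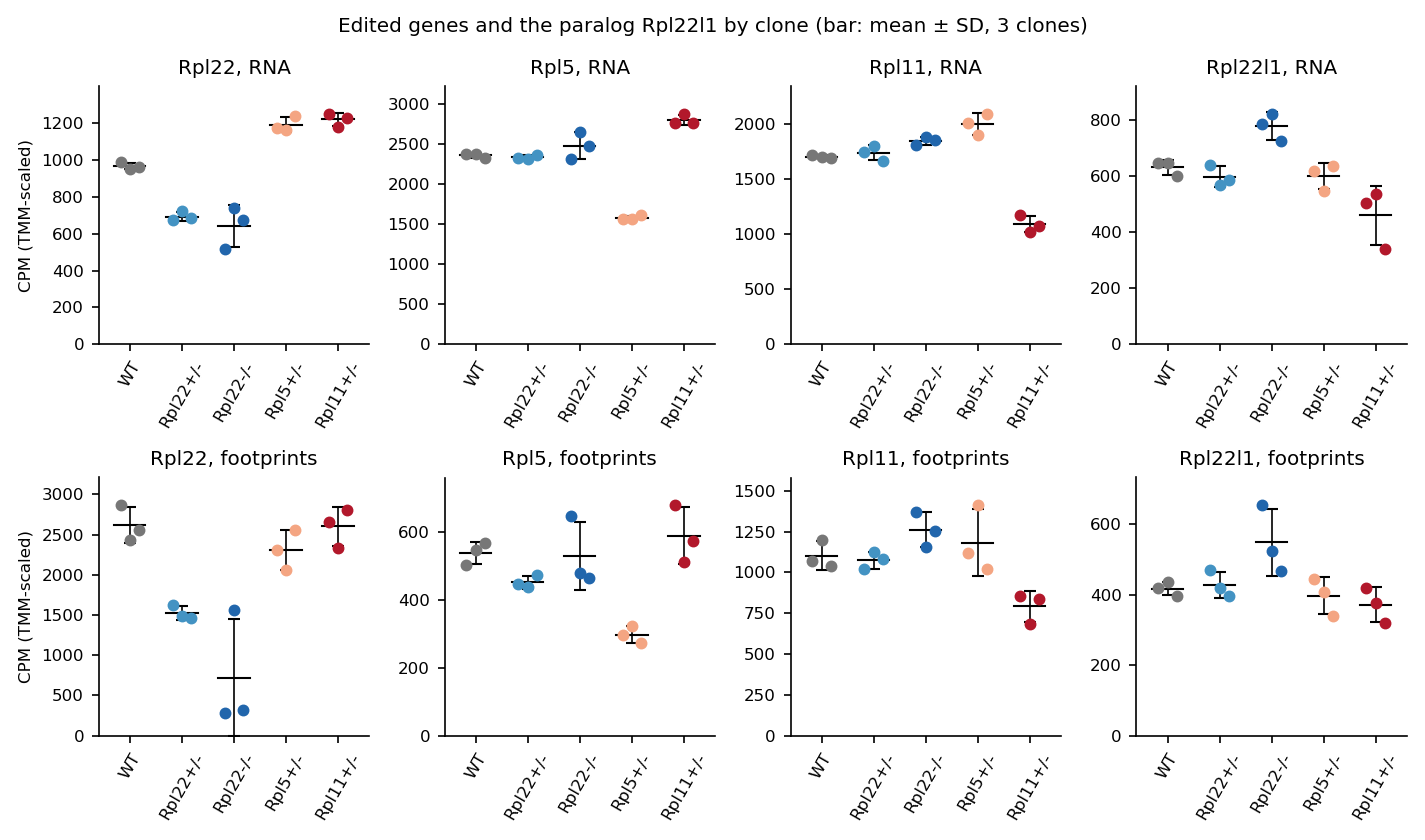
CPM of the edited genes and Rpl22l1 in each clone (points) by genotype, RNA above and footprints below, with the mean and SD of 3 clones (bars). Each edited gene is lowest in its own genotype, the Rpl22-/- footprints split into 2 clones at 282 and 322 CPM and 1 at 1557 CPM, and Rpl22l1 RNA is highest in the clones labelled Rpl22-/-.

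In RNA, 1635 of 12341 genes tested (13.2%) were called at an adjusted p under 0.05, 719 higher (5.83%) and 916 lower (7.42%) in the Rpl22 clones than in the 5S clones. Most differences were small. The median size on the log2 scale was 0.22 among the higher and 0.30 among the lower genes, and 7 higher and 50 lower genes reached a 2-fold difference. For 714 genes (5.79%) the 6 clones of a class did not overlap with the 6 of the other, with the Rpl22 clones above for 329 (2.67%) and below for 385 (3.12%). The count of called genes leaned on single clones: it was 2549 without Rpl11+/- clone 414, 981 and 1066 without Rpl22+/- clones 13 and 16, 968 without Rpl22-/- clone 649, and 857, 1052 and 868 without Rpl5+/- clones 68, 76 and 80. Without the library labelled Rpl22-/- 30 it was 1214, and 1206 without Rpl22+/- clone 60 and Rpl11+/- clone 22.

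Each pair of genotypes across the classes differed in RNA. The Rpl22+/- clones differed from the Rpl5+/- clones in 623 genes (5.05%) and from the Rpl11+/- clones in 718 genes (5.82%). The Rpl22-/- clones differed from the Rpl5+/- clones in 243 genes (1.97%) and from the Rpl11+/- clones in 361 genes (2.93%). Without the library labelled Rpl22-/- 30 these last 2 counts were 79 and 37, in a genotype of 2 clones. Within the classes, 0 genes were called between Rpl22-/- and Rpl22+/-, with and without that library (657 and 480 at an unadjusted p under 0.05), and 5 between Rpl11+/- and Rpl5+/- (0.0405%). Of the genes called between classes, 703 of the 719 higher and 899 of the 916 lower had the same sign in all 4 cross-class pairs, as the class mean was built from these pairs.

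Messenger RNAs of ribosomal proteins made the broadest pattern. Leaving out the 3 edited genes, 67 of 76 were lower in the Rpl22 clones (88.2%, against 7.42% of all genes tested) and 0 were higher. The large subunit had 38 of 44 lower, with a median log2 difference of -0.19, and the small subunit 29 of 32, with a median of -0.24, beside a median of -0.01 over all genes tested. The 9 that did not pass, Rpl3, Rpl7a and Rpl10a among them, had values between -0.13 and 0.04. For 35 of the 76 genes all Rpl22 clones lay below all 5S clones, beside 3.12% of all genes tested. The count of lower genes stayed between 55 and 68 under every alternative setting and with any clone left out.

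Summed over the 76 genes, ribosomal protein mRNA took 13.1% to 15.3% of RNA counts in the Rpl22 clones and 15.7% to 17.3% in the 5S clones. The classes did not overlap. The WT clones had 13.1% to 13.4%, at the lower end of the Rpl22 clones. Gene by gene, the mean of the 5S clones was above the WT mean in 76 of 76 genes, with a median log2 ratio of 0.30, and the mean of the Rpl22 clones in 75 of 76, with a median of 0.08. These ratios to WT are given without a test.

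**Figure D2:**
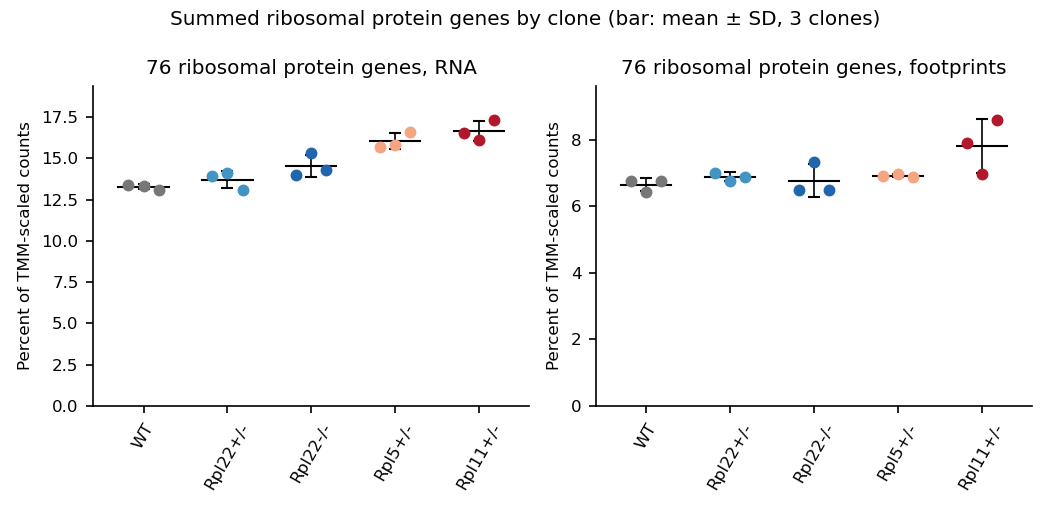
Percent of TMM-scaled counts taken by 76 ribosomal protein genes in each clone (points), by genotype, with the mean and SD of 3 clones, for RNA (left) and footprints (right). In RNA all 5S clones, at 15.7% or more, lie above all Rpl22 clones, at 15.3% or less, while in footprints the classes overlap.

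Rps27, a small-subunit protein, had the lowest difference of the group. Its RNA ran from 977 to 1224 CPM in the Rpl22 clones (median 1028) and from 1268 to 1575 CPM in the 5S clones (median 1440), a log2 difference of -0.43 (SE 0.06, adjusted p = 0.00171). The classes did not overlap, and the WT clones, at 922 to 1076 CPM, were level with the Rpl22 clones. Rpl23a, at the exit of the peptide tunnel, ran from 2382 to 2660 CPM against 2889 to 3165 CPM (log2 difference -0.29, SE 0.04, adjusted p = 0.001), with the WT clones at 2318 to 2409 CPM. Rps7 (1601 to 1822 against 1983 to 2210 CPM) and Rpl39 (1093 to 1213 against 1279 to 1622 CPM) were separated in the same way. With Rps27 and Rpl23a they were the ribosomal protein genes, apart from Rpl22, called lower in all 4 cross-class pairs.

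Many ribosomal protein mRNAs begin with a terminal oligopyrimidine tract, a C followed by a stretch of C and T, which couples their translation to growth signals. The RefSeq promoter windows (GRCm38.p6, 250 bases before to 50 after each start) were searched on the strand of the gene for a run of at least 5 bases of C or T that starts with C within 5 bases of the annotated start. Such a run was found in 28 of the 55 ribosomal protein genes with a window (50.9%), in 24.5% of the genes tested in RNA with a window and in 21.2% of all genes with one. Among the other genes called lower it was found in 26.9%, and among those called higher in 20.2%. A gene with several windows counted when any of them held such a run. These shares therefore also depend on the number of windows per gene. The starts of Rps27 (chr3:90213634-90213663, minus strand), Rpl38 (chr11:114668565-114668594, plus), Gas5 (chr1:161035151-161035180, plus) and Eef1a1 (chr9:78481710-78481739, minus), all called lower, show the run in capitals. Where a gene had several windows, a window with a run was chosen for its line. The lines of Rpl38 and Gas5 show starts downstream of the first annotated base of each gene, at chr11:114667818 and chr1:161034601. The capitals begin at the C of such a run nearest the annotated start of that window, and any C or T just before them stays in small letters. They are followed by Rps7 (chr12:28635939-28635968, minus) and Kcnk5 (chr14:20181768-20181797, minus), also called lower, in which no such run starts within 5 bases of the annotated start. The line of Rps7 does hold such a run further downstream, so its lack of capitals rests on that limit and on the annotated start. Each line holds 30 bases, 5′ to 3′, 15 of them before the start.
Rps27: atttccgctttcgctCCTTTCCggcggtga
Rpl38: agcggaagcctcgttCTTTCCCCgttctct
Gas5: agccgccatctcagcCTTTCggagctgtgc
Eef1a1: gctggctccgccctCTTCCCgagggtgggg
Rps7: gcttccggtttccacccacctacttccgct
Kcnk5: ggaggcgcgctgggcgtactgtcgcgcgcg

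In RNA the median of the 76 ribosomal protein genes was negative in all 4 cross-class pairs, and most calls came from the heterozygous Rpl22 clones. The median log2 difference of the 76 genes was -0.24 for Rpl22+/- against Rpl5+/- (42 called lower, beside 2.91% of all genes tested) and -0.29 for Rpl22+/- against Rpl11+/- (64 called lower, beside 3.57%). For Rpl22-/- it was -0.15 against Rpl5+/- (4 called lower, beside 1.47%) and -0.20 against Rpl11+/- (20 called lower, beside 1.82%). None was called higher in any of these pairs. Between Rpl22-/- and Rpl22+/- the median was 0.09 and 0 genes were called. Within Rpl22-/- clone 30 had the highest share of RNA counts in these genes, 15.3%, beside 14.3% in clone 776 and a lower share in clone 649. Without it the medians of Rpl22-/- were -0.19 against Rpl5+/- (2 called lower), -0.23 against Rpl11+/- (5 called lower) and 0.05 against Rpl22+/-.

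Footprints of the same genes did not pass the test. Of 76 genes, 0 were called (0.262% of all genes were, in either direction), with 20 at an unadjusted p under 0.05 and a lowest adjusted p of 0.152. DESeq2 called 1 lower and 1 higher. The median log2 difference was -0.14, and 61 of 76 values were negative. Against Rpl5+/- the medians were 0.04 for Rpl22+/- and -0.03 for Rpl22-/-, and against Rpl11+/- they were -0.23 and -0.25. Without clone 30 the Rpl22-/- medians were -0.08 and -0.33. The footprint test was less precise, with a median SE of 0.11 against 0.04 in RNA. In 12 of the genes the footprint CPM was under 0.1 of the RNA CPM, and reads shared with pseudogene copies may have been assigned elsewhere there. Without these 12 the median was -0.14 as well, but loss of reads to pseudogene copies in the other 64 genes was not tested. Among the genes tested, 2510 were pseudogenes in footprints and 503 in RNA.

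In footprints the 76 genes took 6.49% to 7.33% of counts in the Rpl22 clones and 6.89% to 8.58% in the 5S clones, and the classes overlapped. Translational efficiency, footprints relative to RNA, was called for 0 of the 76 genes (14 at an unadjusted p under 0.05), with a median log2 difference of 0.07.

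**Figure D3:**
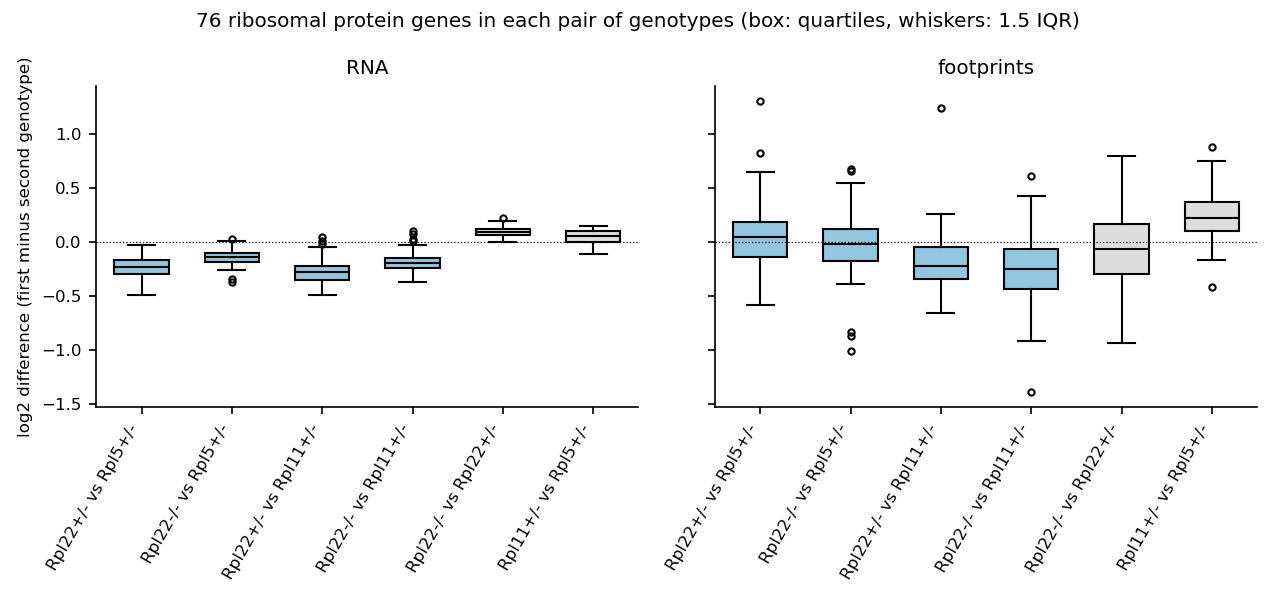
Log2 differences of 76 ribosomal protein genes (boxes: quartiles and median, whiskers to 1.5 interquartile ranges, circles beyond) for the 4 pairs across the classes (blue) and the 2 pairs within them (grey), RNA at left and footprints at right. RNA medians run from -0.15 to -0.29 across the classes, while footprint medians are near 0 against Rpl5+/- and at -0.23 and -0.25 against Rpl11+/-.

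Ribosome biogenesis factors had 18 of 51 genes lower in the Rpl22 clones and 0 higher in RNA, beside 7.42% lower and 5.83% higher over all genes tested, with a median log2 difference of -0.17. Polr1a, the largest subunit of RNA polymerase I, ran from 29.7 to 33.7 CPM in the Rpl22 clones and from 37.3 to 55.4 CPM in the 5S clones (log2 difference -0.51, SE 0.07, adjusted p = 0.00137). The clones did not overlap, and the WT clones lay at 30.1 to 32.6 CPM. Gnl3, a nucleolar GTPase, ran from 80.1 to 97.3 against 103 to 141 CPM (-0.49), with the WT clones at 98.6 to 110 CPM. Npm1, a nucleolar chaperone, differed by -0.22. Nop2 (-0.54), Mdn1 (-0.48), Dkc1 (-0.36) and Utp20 (-0.34) were also lower. Polr1a was the one member called in footprints (-0.52, SE 0.08, adjusted p = 0.0496).

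Host genes of small nucleolar RNAs, whose introns carry the RNAs that guide rRNA modification, had 5 of 13 lower and 0 higher in RNA, beside 7.42% of all genes tested lower. Gas5 ran from 142 to 182 CPM in the Rpl22 clones and from 192 to 240 CPM in the 5S clones (-0.47, SE 0.07, adjusted p = 0.00236), with the WT clones at 147 to 157 CPM. Snhg3 (-0.53), Snhg4 (-0.30), Snhg1 (-0.29) and Snhg5 (-0.27) were the others, and of these Snhg4, Snhg1 and Snhg5 were not called when all 8 genotypes of the series entered the fit.

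Of 65 translation factor genes, 13 were lower and 2 higher, beside 7.42% and 5.83% of all genes tested. Their median log2 difference of -0.02 was close to the -0.01 of all genes. Eef1a1, which brings aminoacyl-tRNA to the ribosome, ran from 13390 to 14770 CPM against 14980 to 16270 CPM (-0.18, SE 0.03, adjusted p = 0.00411). Eef1b2 (-0.26), Eif4a2 (-0.31) and Eif3g (-0.24) were lower too, and Eif4a2 was not called with all 8 genotypes in the fit. The name pattern of the list also took in Eef1akmt3 (-0.56) and Eef1akmt4 (-0.22), which methylate an elongation factor. The 2 higher genes were Eif3c (0.19) and Eif4ebp3, which stayed between 0.366 and 0.924 CPM in the Rpl22 clones and between 0 and 0.228 CPM in the 5S clones. The Eif4ebp3 call was lost with DESeq2. Mitochondrial ribosomal proteins had 4 of 78 lower and 2 higher, no larger a share than the 7.42% and 5.83% of all genes tested, with a median of 0.01.

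**Figure D4:**
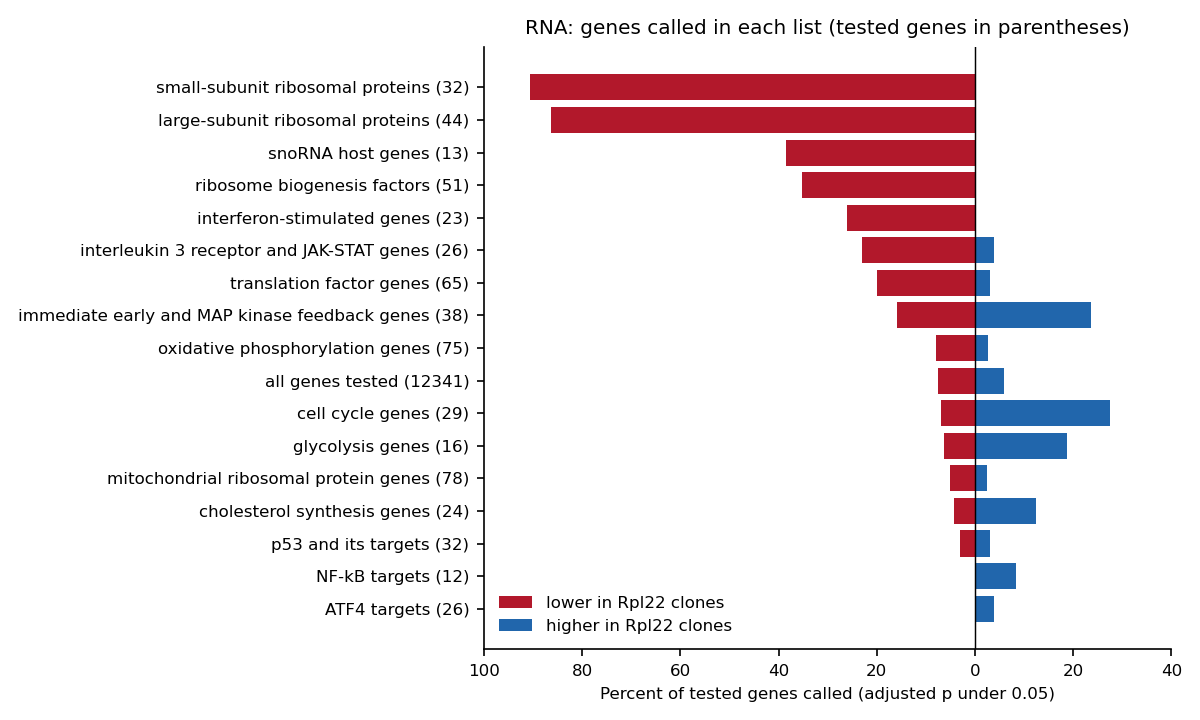
Percent of the tested genes of each list called lower (red, to the left) or higher (blue, to the right) in RNA of the Rpl22 clones than of the 5S clones, with the number tested in parentheses. Both subunits of the cytosolic ribosome stand at 29 of 32 and 38 of 44 lower, beside 916 of 12341 over all genes tested.

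In RNA, 38 genes (0.308%) were called in the same direction in all 4 cross-class pairs, 7 higher and 31 lower in the Rpl22 clones. The count was between 5 and 17 with any clone left out except Rpl11+/- clone 414, without which it was 125. It was 8 without Rpl22+/- clone 60 and Rpl11+/- clone 22, and 11 without the library labelled Rpl22-/- 30. Neat1 had the lowest p of these genes.

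Neat1 is the long non-coding RNA that builds nuclear paraspeckles. Its RNA was at 107, 104 and 91.6 CPM in the Rpl22+/- clones and at 90.4, 110 and 109 CPM in the Rpl22-/- clones. The Rpl5+/- clones had 268, 298 and 295 CPM and the Rpl11+/- clones 239, 195 and 195 CPM. The Rpl22 clones were lower than every 5S clone and every WT clone (164 to 226 CPM). The class difference was -1.27 (SE 0.07, adjusted p = 1.02e-06), and the value stayed between -1.29 and -1.21 with any clone left out.

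Several of these genes differed in which class lay nearer to WT. Cish, a feedback inhibitor of cytokine receptor signalling, ran from 160 to 208 CPM in the Rpl22 clones and from 234 to 279 CPM in the 5S clones (-0.49, SE 0.06, adjusted p = 0.00143), with the WT clones at 237 to 261 CPM. Kcnk5, a potassium channel, ran from 63.0 to 80.4 against 93.8 to 104 CPM (-0.46), with WT at 101 to 111 CPM. Mars2, the mitochondrial methionyl-tRNA synthetase, ran from 21.4 to 25.6 against 32.0 to 35.6 CPM (-0.48), with WT at 29.1 to 33.8 CPM. For these the WT clones sat with the 5S clones.

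Epb41l4aos, a non-coding gene named as antisense to Epb41l4a, was the reverse. Whether the counting used strand is not given, so its reads cannot be told apart from reads of a gene that overlaps it. It ran from 38.5 to 53 CPM in the Rpl22 clones and from 62.8 to 82.7 CPM in the 5S clones (-0.59), with WT at 46.3 to 48.1 CPM. Gpcpd1, an enzyme of phospholipid turnover, was higher in the Rpl22 clones, at 17.3 to 21.4 against 11 to 14.1 CPM (0.58, SE 0.07, adjusted p = 0.000744), and WT, at 16.1 to 18 CPM, was nearer to the Rpl22 clones. Over all called genes, the WT mean was nearer to the Rpl22 clones for 462 of the 719 higher and 483 of the 916 lower genes.

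**Figure D5:**
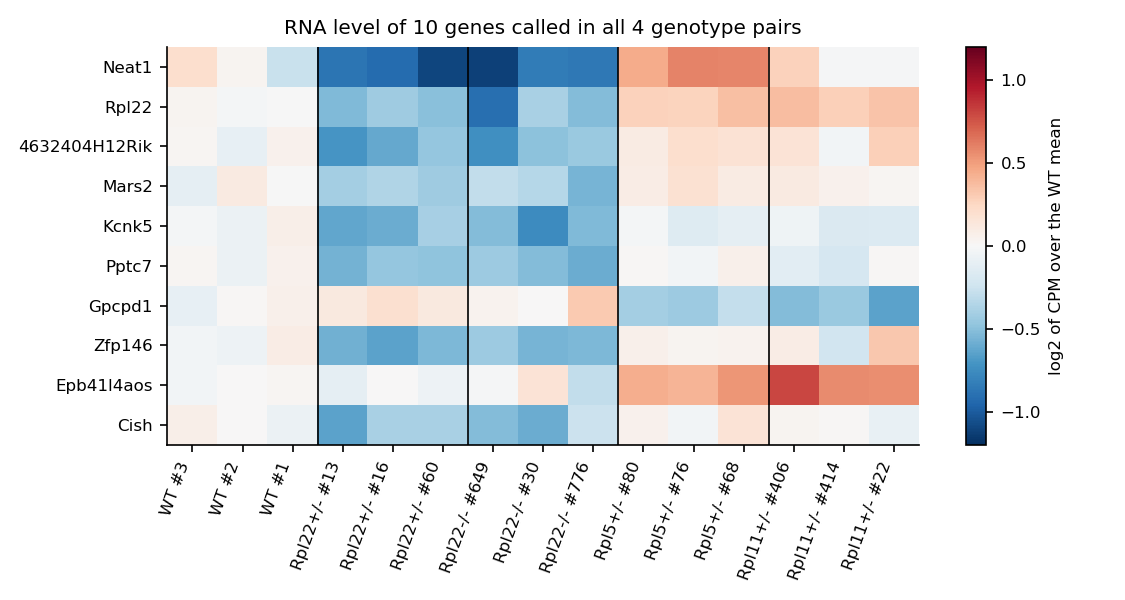
RNA level of 10 genes called in all 4 cross-class pairs, as the log2 ratio of each clone's CPM to the mean of the 3 WT clones (colour), with clones in columns by genotype. Neat1, Kcnk5, Pptc7, Zfp146 and Cish are below WT in all Rpl22 clones, and Epb41l4aos is above WT in all 5S clones.

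Among protein-coding genes with at least 5 CPM and classes that did not overlap, P2ry1 and Hba-a1 had the largest lower values. P2ry1, a receptor for extracellular ADP, ran from 4.07 to 14.6 CPM in the Rpl22 clones and from 17.5 to 26.1 CPM in the 5S clones (-1.34, SE 0.26, adjusted p = 0.0128), and its call was lost without Rpl22+/- clone 60 and Rpl11+/- clone 22. Rpl22 itself and Rims3 (-0.85 each), B3gnt7 (-0.80), Lbhd1 (-0.80), Calhm2 (-0.69), Kifc3 (-0.66), 2610044O15Rik8 (-0.64) and Mex3a (-0.64) followed. B3gnt7 lost its call without Rpl22+/- clone 16 (adjusted p = 0.05001).

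Hba-a1, an alpha globin gene, was at 13.9 to 25.9 CPM in the Rpl22 clones and at 30.2 to 67.4 CPM in the 5S clones in RNA (-1.34, SE 0.11, adjusted p = 0.00015). The WT clones spread from 15.7 to 42.3 CPM, across the gap between the classes, and the call ended with all 8 genotypes in the fit. In footprints both Hba-a1 (-1.79, SE 0.29, adjusted p = 0.0496) and its near-identical copy Hba-a2 (-1.57, SE 0.12, adjusted p = 0.000449) were lower, and how reads were divided between the copies is uncertain. Of the other erythroid markers, Klf1 (9.53 to 20.7 against 17.1 to 25.0 CPM), Gata1, Epor and both beta globin genes were not called. The summed level of the 8 erythroid markers was 70.2 to 125 CPM in the Rpl22 clones and 116 to 181 CPM in the 5S clones. Whether the makeup of the cultures plays a part in the globin difference was not tested.

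Under the same limits, the largest higher values in RNA were those of Angptl6, Dusp10, Arid5b, Gpcpd1, Tecpr1 and Maff. Dusp10, a phosphatase that turns off stress-activated MAP kinases, ran from 6.53 to 7.96 CPM in the Rpl22 clones and from 3.56 to 5.23 CPM in the 5S clones (0.73, SE 0.09, adjusted p = 0.00134). Arid5b, a chromatin regulator, ran from 11.9 to 16.2 against 5.30 to 11.2 CPM (0.70). Angptl6 (0.78, adjusted p = 0.0439) lost its call in 11 of the 12 fits that left out a clone, while Dusp10, Arid5b, Tecpr1 (0.55) and Maff (0.54) kept theirs in all 12.

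Genes of the immediate early response and of MAP kinase feedback went both ways, with 9 of 38 higher and 6 lower, beside 5.83% and 7.42% of all genes tested, and a median log2 difference of 0.14. Fosl1, an AP-1 subunit, ran from 15.8 to 19.8 CPM in the Rpl22 clones and from 8.49 to 16.2 CPM in the 5S clones (0.68, SE 0.08, adjusted p = 0.000851). The classes overlapped by 1 clone on each side, Rpl22-/- clone 776 at 15.8 and Rpl11+/- clone 406 at 16.2 CPM, and the WT clones were lowest at 5.38 to 7.12 CPM. Maff, a small partner of AP-1 type factors, ran from 51.8 to 61.4 against 31.0 to 48.3 CPM, again above WT (27.0 to 31.6 CPM). Klf6 (0.41), Btg1 (0.37) and Srf (0.25) were also higher, and Fos (-0.35), Btg2 (-0.33), Zfp36l2 (-0.32), Dusp1 (-0.29) and Ier2 (-0.28) were lower.

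Interleukin 3 receptor and JAK-STAT genes had 6 of 26 lower and 1 higher, beside 7.42% and 5.83% of all genes tested, with a median of -0.11. Socs1, an inhibitor of JAK kinases, ran from 8.91 to 14.8 CPM in the Rpl22 clones and from 10.9 to 35.6 CPM in the 5S clones (-0.94, SE 0.18, adjusted p = 0.00978). The Rpl5+/- clones, at 25.7, 35.6 and 34.6 CPM, were above all Rpl22 clones, while the Rpl11+/- clones, at 12.2, 22.3 and 10.9 CPM, overlapped with them, and WT was highest at 47.8 to 53.5 CPM. Myc, the growth regulator, ran from 192 to 256 against 278 to 382 CPM (-0.54, SE 0.09, adjusted p = 0.00395), with WT at 382 to 389 CPM. Id1 (-0.66), Pim1 (-0.19) and Ccnd3 (-0.18) were lower and Socs3 was higher (0.28), with Id1 not called when all 8 genotypes entered the fit.

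Interferon-stimulated genes had 6 of 23 lower and 0 higher, beside 7.42% of all genes tested lower. The median of Rpl22+/- and of Rpl22-/- was -0.01 and -0.04 against Rpl5+/- but -0.29 and -0.35 against Rpl11+/-. Rpl11+/- clone 22 stood apart, with a summed level of 2542 CPM beside 1784 to 2099 CPM in the other 5S clones. Nlrc5, which switches on MHC class I genes, had 9.84 ± 0.932 CPM in the Rpl5+/- clones and 17.6 ± 6.23 CPM in the Rpl11+/- clones (SD, n = 3 each), against 5.38 to 9.01 CPM in the Rpl22 clones (-0.89, SE 0.15, adjusted p = 0.00395). B2m (-0.44) and Tap1 (-0.42), both of antigen presentation, were lower as well, with WT means of 362 and 42.4 CPM beside 371 and 43.8 CPM as medians of the Rpl22 clones. Usp18 (-1.18), Irf9 (-0.34) and Psmb8 (-0.26) completed the list, of which Irf9 lost its call in 6 of 12 fits without 1 clone.

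Of 32 tested genes of the p53 pathway, 1 was higher and 1 lower, beside 5.83% and 7.42% of all genes tested, with a median of -0.01. That median averages unlike clones. Rpl11+/- clone 22 stood apart, with a summed level of 2889 CPM beside 1917 to 2184 CPM in the other 5S clones. Its footprint sum was 1993 CPM beside 1171 to 1391 CPM. The RNA median of Rpl22+/- and of Rpl22-/- was 0.09 and 0.03 against Rpl5+/- but -0.04 and -0.14 against Rpl11+/-. Plk3 was higher (0.78, SE 0.15, adjusted p = 0.00643), at 11.3 to 14.1 CPM against 5.41 to 11.4 CPM, and Btg2 was lower, a call lost in 7 of 12 fits. Mdm2 (0.09, adjusted p = 0.584), Trp53 (-0.07, adjusted p = 0.605) and Cdkn1a (0.04, adjusted p = 0.862) did not pass in RNA. These values do not show that the pathway was equal in the classes, since the SE of Mdm2 and of Cdkn1a was 0.10 and 0.11.

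ATF4 targets, the genes of the integrated stress response, had 1 of 26 higher, beside 5.83% of all genes tested: Phgdh (0.20), whose call was lost in 8 of 12 fits. Values were positive in 25 of the 26, beside 5995 of 12341 genes tested, with a median of 0.25. The median was 0.04 and 0.11 against Rpl5+/- (for Rpl22+/- and Rpl22-/-) and 0.38 against Rpl11+/- for both. The Rpl11+/- clones were unlike each other: the summed level of the list was 3646 CPM in clone 22 and 4690 CPM in clone 406 but 6562 CPM in clone 414, beside 6493 to 6557 CPM in the WT clones.

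Cell cycle genes had 8 of 29 higher and 2 lower, beside 5.83% and 7.42% of all genes tested. Mcm7, a subunit of the replicative helicase, ran from 202 to 257 CPM in the Rpl22 clones and from 174 to 198 CPM in the 5S clones (0.33, SE 0.05, adjusted p = 0.00198), with WT at 225 to 248 CPM. The mitotic genes Aurkb (0.23), Ccnb1 (0.22), Ccnb2 (0.22), Top2a (0.21) and Plk1 (0.18) were higher, and the kinase Cdk6 was lower (-0.32), at 374 to 488 against 500 to 556 CPM. Beside the same shares of all genes, glycolysis genes had 3 of 16 higher and 1 lower: the glucose transporter Slc2a1 (0.33) and the phosphofructokinases Pfkm (0.39) and Pfkl (0.14) were higher and Hk2 was lower (-0.28). The Slc2a1 call ended with all 8 genotypes in the fit, the Hk2 call without Rpl22+/- clone 60 and Rpl11+/- clone 22, and the Pfkl call without any 1 of 8 clones. Cholesterol synthesis had 3 of 24 higher and 1 lower, oxidative phosphorylation 2 of 75 higher and 6 lower, and NF-kB targets 1 of 12 higher, Nfkbiz (0.63).

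In footprints, 39 of 14900 genes (0.262%) were called, 19 higher (0.128%) and 20 lower (0.134%) in the Rpl22 clones, and 0 were called in all 4 cross-class pairs. Without a filter on low counts 61 genes were, and with DESeq2 13. For 206 genes (1.38%) the classes did not overlap, with the Rpl22 clones above for 107 (0.718%) and below for 99 (0.664%). Pair by pair, 0 genes were called for Rpl22+/- against Rpl5+/- and 2 (0.0134%) for each of the other 3 cross-class pairs, Hba-a2 among them each time. Between Rpl22-/- and Rpl22+/- 1 gene was called (0.00671%). Without clone 30 that count was 2, and the count of Rpl22+/- against Rpl11+/- was 0. The count fell to between 1 and 21 with any clone left out except Rpl22+/- clone 16, without which it was 86. It was 11 without Rpl22+/- clone 60 and Rpl11+/- clone 22 and 2 without the library labelled Rpl22-/- 30. Of the named genes, only Hba-a2 kept its footprint call in all 12 fits without 1 clone, and it lost it with all 8 genotypes in the fit. Of 1609 genes called in RNA and tested in footprints, 1344 had the same sign there, and 21 genes were called at both levels, 20 in the same direction.

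Dnaja1, a co-chaperone of Hsp70, ran from 151 to 179 footprint CPM in the Rpl22 clones and from 246 to 441 CPM in the 5S clones (-1.04, SE 0.13, adjusted p = 0.023), with WT at 189 to 268 CPM. Its RNA difference was -0.23 (adjusted p = 0.0537). Fth1, the ferritin heavy chain, ran from 250 to 424 against 436 to 618 footprint CPM (-0.65, SE 0.09, adjusted p = 0.0412), with WT at 435 to 488 CPM and an RNA difference of -0.01. Nrgn (-1.11), Rybp (-1.07), Rangrf (-0.96), Rmnd1 (-0.87), Mgme1 (-0.53) and Zfp146 (-0.52) were lower as well.

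Ibtk, a cullin adaptor, ran from 76.8 to 94.2 footprint CPM in the Rpl22 clones and from 40 to 58.3 CPM in the 5S clones (0.68, SE 0.09, adjusted p = 0.0367), with WT at 73.8 to 86.1 CPM and an RNA difference of 0.16. Taf7, a subunit of the general transcription factor TFIID, ran from 69.5 to 102 against 34.6 to 60.2 CPM (0.72, SE 0.12, adjusted p = 0.0496), and here WT, at 32.5 to 38.5 CPM, was at the low end. Lsm8, of the U6 snRNA ring, ran from 191 to 265 against 97.2 to 159 CPM (0.74), with an RNA difference of 0.06. Nfkbiz, an atypical IkB protein, was higher at both levels (0.88 in footprints, 0.63 in RNA). Tmem171 (1.34), Lamtor1 (1.02), Fam210a (0.71), Plin3 (0.59), Cers4 (0.50) and Gstp1 (0.46) were the other named higher genes.

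Translational efficiency was called for 8 of 15407 genes (0.0519%), 3 higher (0.0195%) and 5 lower (0.0325%) in the Rpl22 clones. Of the 4 cross-class pairs, only Rpl22-/- against Rpl11+/- had a called gene, Lamtor1 (0.00649%), and 3 genes were called between Rpl22-/- and Rpl22+/- (0.0195%). Without clone 30, 1 gene was called in each of the 3 pairs that hold Rpl22-/-. The count was 0 without Rpl5+/- clone 68, 80 without Rpl22+/- clone 16, at most 8 without any other clone, and 4 without the library labelled Rpl22-/- 30. With the log ratio per clone as the measure, a paired analysis, it was 1. Ndufb1, a complex I subunit, was higher (1.05, SE 0.17, adjusted p = 0.0291): its footprints ran from 169 to 253 CPM in the Rpl22 clones and from 88.3 to 187 CPM in the 5S clones, while its RNA was lower (-0.20), a call lost in 6 of the 12 fits without 1 clone, with all 8 genotypes and without Rpl22+/- clone 60 and Rpl11+/- clone 22. Fam210a (0.87) and Lamtor1 (0.91), the anchor of nutrient signalling at the lysosome, were the other higher genes. Ctdsp2 (-1.02), Mknk2 (-0.95), Fth1 (-0.64) and Arpc2 (-0.53) were lower, and so was H2ac6, a histone gene under the level at which genes were named and chosen after its value was seen. Each of the 7 named genes lost its call in at least 6 of the 12 fits without 1 clone.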

How the data were processed

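The authors deposited 1 table of estimated counts per Ensembl gene (55487 genes), not normalized. The submitters' processing notes name STAR 2.6.1d, Salmon 1.4.0, DESeq2 1.30 and GRCm38, without their roles. The annotation, the counted feature, whether strand was used and how multi-mapping reads were assigned are not given in the sources used here. RNA was poly(A)-selected and footprints were 28 to 30 nt, per the labels' protocols. Symbols came from the table or a table of gene names, and coordinates and biotypes from RefSeq (GRCm38.p6).

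Counts were rounded to whole numbers and fitted with edgeR 4.0.16 (R 4.3.3): TMM scaling within each assay, filterByExpr by genotype (10 counts, 15 in total), 1 mean per genotype and a robust quasi-likelihood test. The class difference is the mean of the 2 Rpl22 genotypes minus the mean of the 2 5S genotypes. Translational efficiency is the assay by class interaction in 1 fit of 24 libraries. Tests are two-sided, with Benjamini-Hochberg adjustment over all genes tested and a threshold of 0.05. Fold changes are log2 with the SE from the test statistic. Counts per library size (CPM) are on TMM-scaled library sizes, which include the WT libraries, are not per length, and are compared only within a gene. The scripts were tested on simulated data.

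Clone numbers pair the assays, since each lysate was divided. Over 9430 genes the deviations from the genotype mean correlated at 0.182 to 0.633 in the 12 same-clone pairs and at -0.543 to -0.0268 between different clones. Because the deviations are centred within a genotype, positive same-clone values force those between different clones to be negative on average. The negative values are thus no separate evidence of the pairing. Members, lists and the named genes' rule were chosen with earlier results of these data known. The named genes were the edited genes and Rpl22l1, the 10 largest called values in each direction at 5 CPM or more with classes not overlapping, up to 5 called translational efficiency genes in each direction with the lowest p, the 10 four-pair genes whose largest p over the 4 pairs was lowest, and up to 4 called members per list. Other list members and single genes were added after their values were seen. Alternatives were DESeq2 1.42.0, limma voom (limma 3.58.1), RLE size factors, 2 class means, all 8 genotypes, no filter, protein-coding genes only, the clone as a block and leaving out clones. A few genes are not reported here.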

Additional observations from a re-analysis of the deposited data

Results flagged for a closer look

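Genotypes of the same class differed in a few genes, and the difference was tested in each case with edgeR's quasi-likelihood test. In RNA, Rpl11+/- minus Rpl5+/- was 0.83 for Rpl5 (adjusted p = 3.12e-06) and -0.88 for Rpl11 (adjusted p = 3.89e-06), the 2 edited genes themselves. Lrrc51 differed by 0.99 (adjusted p = 0.0121), at 11.3 to 13.4 CPM in the Rpl11+/- clones and 5.61, 6.69 and 5.98 CPM in the Rpl5+/- clones. Itgb4, an integrin subunit, differed by 0.46 (adjusted p = 0.0288), at 115 CPM or more in the Rpl11+/- clones and 83.8 to 90.5 CPM in the Rpl5+/- clones. B230219D22Rik differed by -0.39 (adjusted p = 0.0407), at 81.0, 78.6 and 74.8 against 99.9, 106 and 102 CPM.

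Between the Rpl22 genotypes, Rbm3-ps, a pseudogene of the cold-induced gene Rbm3, differed by -4.69 in footprints (Rpl22-/- minus Rpl22+/-, adjusted p = 0.00245). It had 6.54, 3.68 and 4.64 CPM in the Rpl22-/- clones, including the library labelled Rpl22-/- 30, and 92.3, 82.4 and 209 CPM in the Rpl22+/- clones, beside 26.5 to 116 CPM in the 5S and WT clones. Its RNA stayed under 1 CPM, and its translational efficiency differed by -4.51 (adjusted p = 0.0468). Rps7-ps3, a ribosomal protein pseudogene, differed by -0.81 in translational efficiency (adjusted p = 0.0468), with 308, 342 and 314 footprint CPM against 528, 482 and 545 CPM. Gm20544 differed by 6.32 (adjusted p = 0.0468), a value that rests on 0 footprint counts in the 3 Rpl22+/- clones and under 1 CPM elsewhere, so its size depends on the prior count and is no bound. Without the library labelled Rpl22-/- 30 the footprint difference of Rbm3-ps was -4.51 (adjusted p = 0.0136), and the translational efficiency differences of Rbm3-ps, Rps7-ps3 and Gm20544 did not pass (adjusted p = 0.353, 0.117 and 0.117). Reads of pseudogenes may belong to their parent genes, which was not tested.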

How the results depend on the processing

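No sign turned among the 83 named genes called in RNA under any alternative, and 55 kept their call in all of them. Of the 24 named genes called in footprints and the 7 in translational efficiency, 0 kept it in all. The RNA count (1635) lay between 857 and 2549 with 1 clone left out. The RNA four-pair count (38) was 128 with DESeq2, 17 with all 8 genotypes, 8 without the 2 clones whose footprints stand apart, and 5 to 125 with 1 clone left out. The footprint count (39) was 422 with DESeq2, 105 with all 8 genotypes, 702 without a filter, 60 with protein-coding genes only, 11 without those 2 clones and 1 to 86 with 1 clone left out. The footprint four-pair count (0) was 13 with DESeq2 and 61 without a filter. Ribosomal protein genes called lower in footprints (0) were 1 with DESeq2, 1 with all 8 genotypes and 5 without a filter. The translational efficiency count (8) was 3 with 2 class means, 75 with DESeq2, 13 with all 8 genotypes, 203 without a filter, 1 with log ratios per clone and 0 to 80 with 1 clone left out, and with the clone as a replicate block it was 9. Without the library labelled Rpl22-/- 30, a setting chosen after the data were seen, Rpl22-/- differed in RNA from Rpl5+/- in 79 genes (243 with it) and from Rpl11+/- in 37 (361 with it). In translational efficiency it differed from Rpl5+/- in 1 (0 with it) and from Rpl22+/- in 1 (3 with it), and in footprints from Rpl22+/- in 2 (1 with it). The causes were not tested. Translational efficiency values near 0 turned sign: Rpl11 to 0.0255 with 2 class means and over -0.0889 to 0.0664 with 1 clone left out, Rpl5 over -0.0791 to 0.0883 with 1 clone left out, and Rpl22l1 to 0.00585 without the 2 clones. With 3 clones per genotype, footprint values of ribosomal protein genes had a median SE of 0.11, beside a median RNA difference of -0.21, which limits what could be detected. Leaving out a clone leaves 2 in its genotype.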
